A study of Mus musculus with 18 samples.

Results

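Loxl2 lies on mouse chromosome 14 at chr14:70008978-70095640 (mm9, forward strand), and its contacts with the promoter of *Slc25a37* were followed in all 18 NG Capture-C samples of the series. *Slc25a37* encodes mitoferrin, which carries iron into mitochondria for haem synthesis and is highly active in erythroid cells. *Loxl2* encodes a secreted lysyl oxidase that cross-links collagen and elastin. The gene was read as the 214 DpnII fragments that overlap it, of 303593 on the chromosome, and 202 of them had a reporter in at least 1 sample. The 12 that never did were 7 to 150 bp long. The gene was singled out on the measured values themselves, since it stood out in the contacts of this viewpoint in deletion lines against WT. Its levels in that contrast are therefore given as a description, and the edgeR calls printed with them are not read as tests.

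In NG Capture-C, fixed chromatin is cut with DpnII and ligated, oligonucleotides pull out ligation products that hold a chosen viewpoint fragment, and each distinct product is counted as a reporter on the fragment joined to the viewpoint. The viewpoint fragment here, chr14:69902454-69903469, covers the start of *Slc25a37*, and Loxl2 begins 105.5 kb past it. Reporter density is usually highest next to a viewpoint and declines with distance. CTCF is a DNA-binding protein that stalls the loop-extruding complex cohesin, and stretches that contact one another often end at its sites.

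Every sample was Ter119+ erythroid cells from spleens of adult C57BL/6 mice given phenylhydrazine, a drug that destroys red cells and so drives erythropoiesis. Experiment 1 compared WT with ∆44/48 (labelled D4448), in which the CTCF sites at HS+44 and HS+48 beside the α-globin locus were removed. Experiment 2 compared WT with ∆θ1 (Dtheta1), ∆θ2 (Dtheta2) and ∆θ1/θ2 (Dt1t2), in which the CTCF sites next to one or both θ-globin genes were edited, and each of the 6 groups had 3 samples. The lines were made by CRISPR-Cas9 in embryonic stem cells or zygotes on a C57BL/6J background, and the targeted sites lie on chromosome 11, not on the chromosome of Loxl2. No expression of *Loxl2* or *Slc25a37* was measured in these files.

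Depth differed between experiments and groups. All viewpoints together gave 345162 to 1120609 reporters a sample in experiment 1 and 8820 to 232346 in experiment 2. From the *Slc25a37* promoter, chromosome 14 held 18784 to 86518 reporters more than 1 kb from the viewpoint in experiment 1. In experiment 2 it held 12303 to 45660 in WT, ∆θ2 and ∆θ1/θ2 but only 1150 to 3410 in ∆θ1, where Loxl2 itself received 77, 191 and 197 reporters. The ∆θ1 values below therefore carry the largest counting error, and many of its single bins and fragments rest on 0 to 5 reporters.

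The position where the excess of Loxl2 contacts over WT drops in the deletion lines fell within 1 DpnII fragment. The reference around both ends of that fragment is shown because the result turns on where the enzyme can cut. The sequences are of the mm9 forward strand, 60 bases each, read from NCBIM37, with the DpnII site in capitals.

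chr14:70090523-70090582, start of the edge fragment: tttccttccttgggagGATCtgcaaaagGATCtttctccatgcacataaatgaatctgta

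chr14:70091325-70091384, end of the edge fragment: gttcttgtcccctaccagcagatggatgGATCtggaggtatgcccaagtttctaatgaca

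The first sequence holds 2 sites, which leave a 12-base fragment that was never listed between the last strongly contacted fragment and the edge fragment. The edge fragment, chr14:70090553-70091354, lies wholly in intron 12 of the 14-exon transcript of *Loxl2*, and exons 13 and 14 follow it.

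In WT, Loxl2 took about 1% of the chromosome 14 reporters of the mitoferrin promoter. The values were 1.15%, 0.924% and 1.00% in WT of experiment 1, and 0.923%, 1.33% and 1.06% in WT of experiment 2. In ∆44/48 they were 4.88%, 5.61% and 7.34%. ∆θ1 had 5.78%, 6.31% and 6.70%, ∆θ2 had 7.94%, 7.57% and 7.41%, and ∆θ1/θ2 had 7.43%, 7.76% and 7.21%. All 12 deletion samples lay above all 6 WT samples, with a gap from 1.33% to 4.88%. An edited allele and the mouse line that carries it cannot be told apart in this design. The founders of each line and the state of its chromosome 14 sequence around Loxl2 are not given in the sources used here, and the densities assume that of the mm9 reference in every sample.

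**Figure D1:**
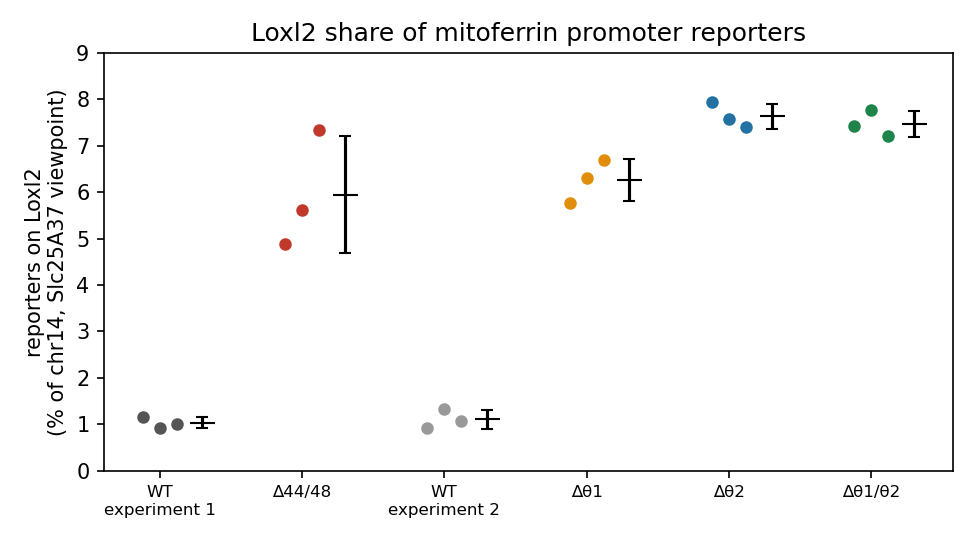
Percent of chromosome 14 reporters of the mitoferrin promoter that fell on Loxl2, per sample, with points for the 3 samples of each group and a bar for the mean ± SD beside them. The WT samples of both experiments lie between 0.923% and 1.33%, and the samples of the 4 deletion lines between 4.88% and 7.94%.

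As group means these shares were 1.03% ± 0.117 (SD, n = 3) in WT of experiment 1 and 5.94% ± 1.26 in ∆44/48, a ratio of 5.78. In experiment 2 they were 1.10% ± 0.206 in WT, 6.26% ± 0.461 in ∆θ1, 7.64% ± 0.273 in ∆θ2 and 7.47% ± 0.277 in ∆θ1/θ2, which were 5.68, 6.93 and 6.78 times WT. Divided into consecutive windows of the length of Loxl2, the chromosome gave the following background: the share of windows called higher in the deletion at an adjusted p of 0.01 (edgeR quasi-likelihood test, Benjamini-Hochberg over all windows) was 0.105% in ∆44/48, 0.244% in ∆θ1, 0.169% in ∆θ2 and 0.391% in ∆θ1/θ2. Loxl2 was the only window called higher in the first 3 comparisons and 1 of 2 in ∆θ1/θ2. Windows called lower numbered 0 in ∆44/48, 0 in ∆θ1, 1 in ∆θ2 and 5 in ∆θ1/θ2. The fitted log2 differences of the Loxl2 window were 2.54 with a standard error of 0.12 in ∆44/48, 2.47 (0.15) in ∆θ1, 2.77 (0.11) in ∆θ2 and 2.74 (0.10) in ∆θ1/θ2. As the gene was chosen on this contrast, nothing is read from these calls. The mitoferrin viewpoint also took a larger part of the reporters of the globin and mitoferrin promoters in some lines: 14.6% to 14.7% in WT of experiment 1 against 21.3% to 29.3% in ∆44/48, and 22.3% to 27.1% in WT of experiment 2 against 21.4% to 33.3% in ∆θ1, 30.0% to 36.2% in ∆θ2 and 30.5% to 37.9% in ∆θ1/θ2. Its part in the Loxl2 values was not tested.

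The 3 lines of experiment 2 could be compared with one another, since their differences did not choose the gene. In edgeR, the Loxl2 window of ∆θ2 differed from that of ∆θ1/θ2 by 0.03 on the log2 scale, with a 95% interval from -0.11 to 0.18 and an adjusted p of 0.906. ∆θ1 lay below ∆θ2 by a log2 difference of -0.31 (interval -0.51 to -0.10, adjusted p of 0.293) and below ∆θ1/θ2 by -0.27 (interval -0.49 to -0.06, adjusted p of 0.275). Neither difference passed the threshold. Over all windows, 0% were called in either direction between ∆θ2 and each of the other lines and 0.25% between ∆θ1 and ∆θ1/θ2, and over 4 kb bins 0% were called for all 3 pairs. None of the 22 bins of Loxl2 was called between lines, while 4 had an unadjusted p under 0.05 in each pair with ∆θ1 and 1 had between ∆θ2 and ∆θ1/θ2. The exact permutation test of the Loxl2 share gave p = 0.1 for each pair with ∆θ1, the smallest that 3 against 3 samples allow, and p = 0.6 for ∆θ2 against ∆θ1/θ2, or 0.15, 0.15 and 0.6 after adjustment over the 3 pairs.

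Along the gene, WT and the deletion lines had different shapes. In WT of experiment 1 density fell away from the viewpoint and stayed low: the 4 kb bin at the start of Loxl2 held 17.3 reporters per kb per 100000 ± 2.49, the bin 56 kb in held 7.80 ± 1.32, and the bin at 80 kb held 11.9 ± 3.68. ∆44/48 held 54.6 in the first of these bins, 55.4 in the second and 91.4 in the third. The pattern of ∆θ2 was alike, with 60.4, 89.8 and 101.1, against 18.6, 10.0 and 15.0 in WT of experiment 2. Density thus showed no net climb along the gene in WT and climbed with distance from the viewpoint in the deletion lines.

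**Figure D2:**
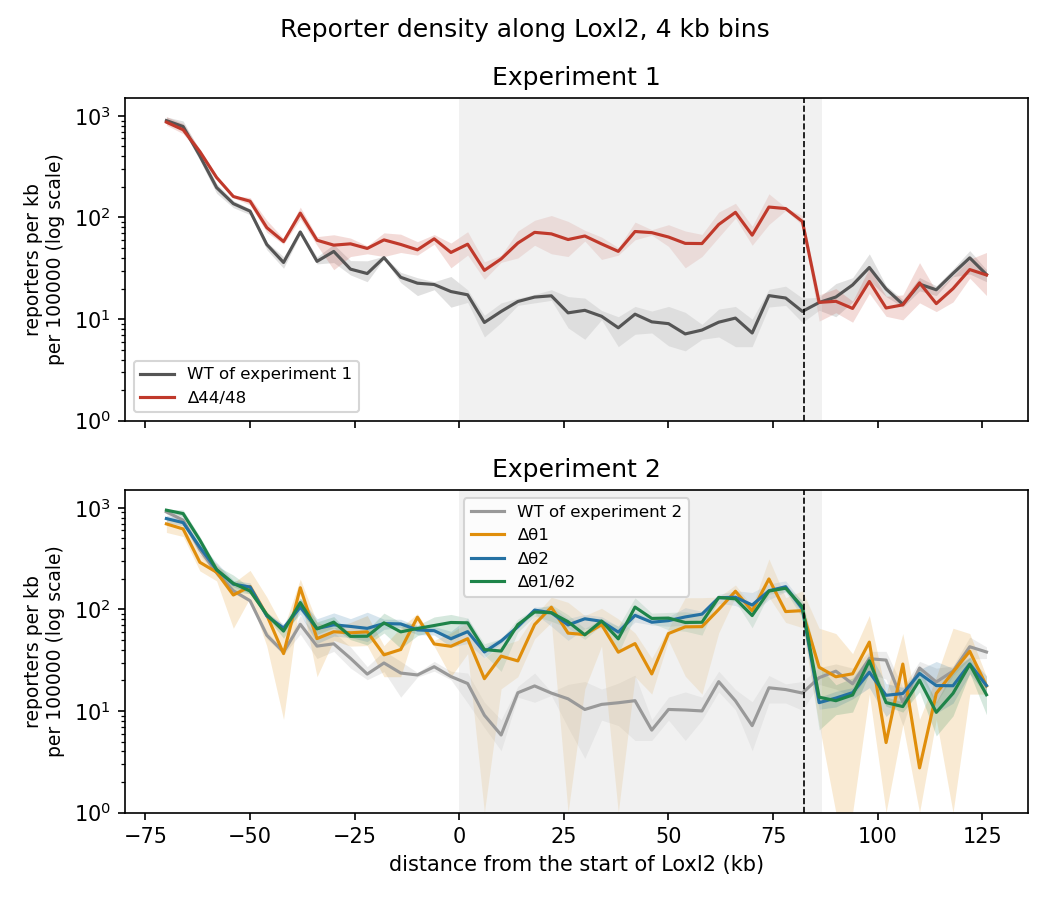
Mean reporters per kb per 100000 chromosome 14 reporters in 4 kb bins (log axis) against distance from the start of Loxl2, with bands from the lowest to the highest of 3 samples (drawn no lower than 1), grey shading over Loxl2 and a dashed line at the far edge. Deletion and WT curves separate gradually before the gene and come together again within 1 bin at the far edge, where ∆44/48 goes from 91.4 to 14.6.

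By 4 equal segments of the gene, a division made after the values had been seen, WT of experiment 1 held 13.9, 11.7, 8.79 and 12.8 reporters per kb per 100000 from the start to the end of Loxl2. ∆44/48 held 50.3, 61.5, 70.9 and 91.0. In ∆θ2 the segments held 64.5, 76.4, 92.9 and 118.3, and in ∆θ1/θ2 64.4, 74.2, 93.4 and 112.0, against 13.7, 12.03, 11.2 and 13.9 in WT of experiment 2. ∆θ1 held 45.9, 61.3, 64.8 and 117.0. Each segment was thus higher than WT in all 4 lines, and in each line the last segment held the most although its end lies past the edge. The ratio to WT rose from 3.63 in the first segment to 7.11 in the last in ∆44/48, with 8.07 in the third. It went from 3.35 to 8.41 in ∆θ1, from 4.70 to 8.51 in ∆θ2 and from 4.70 to 8.05 in ∆θ1/θ2, with 8.36 in the third segment of ∆θ1/θ2. In absolute terms, the last segment of ∆44/48 exceeded WT by 78.2 reporters per kb per 100000 and the first by 36.4.

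The 4 kb bins gave the same outline at finer steps. Over the chromosome, the share of 4 kb bins called higher in the deletion at an adjusted p of 0.01 (edgeR) was 0.822% in ∆44/48, 3.1% in ∆θ1, 2.13% in ∆θ2 and 3% in ∆θ1/θ2. All 22 bins of Loxl2 had enough reporters to be tested in each comparison. In ∆44/48, ∆θ2 and ∆θ1/θ2, 21 of 22 were called higher, and the one that was not lay past the far edge. In ∆θ1, 11 of 22 were called higher. These calls describe the contrast that chose the gene. Called bins continued without a gap ahead of the gene, from 16 kb before its start in ∆44/48, 28 kb before in ∆θ2 and 24 kb before in ∆θ1/θ2. As a description of the same contrast, the higher contacts in these lines did not begin with Loxl2. In ∆θ1 the called bins ahead of the gene, at -40 and -12 kb, did not run up to it.

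**Figure D3:**
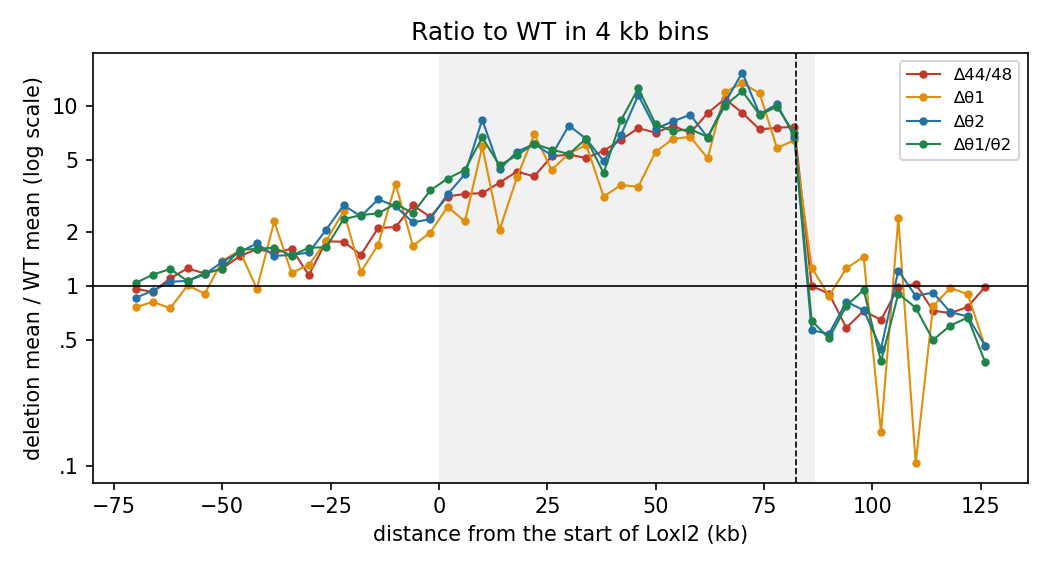
Ratio of the mean density of each deletion line to the mean of its own WT (log axis) in 4 kb bins against distance from the start of Loxl2, with grey shading over the gene and a dashed line at the far edge. The ratios climb from about 1 some 72 to 40 kb before the gene, where their medians are 0.938 to 1.22, to between 10.99 and 15.4 at their highest, and the bin past the edge is at 0.569 to 1.27.

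The ratio to WT showed how gradual the near side was. From 72 to 40 kb before the gene its median over bins was 1.21 in ∆44/48, 0.938 in ∆θ1, 1.12 in ∆θ2 and 1.22 in ∆θ1/θ2. In the last 40 kb before the gene the medians were 1.77, 1.74, 2.31 and 2.42. The first bin of Loxl2 was at 3.15, 2.76, 3.24 and 3.96 times WT. Within the gene the highest ratio was 10.99 in ∆44/48, in the bin 64 kb from the start, 13.5 in ∆θ1 and 15.4 in ∆θ2, both in the bin at 68 kb, and 12.6 in ∆θ1/θ2, in the bin at 44 kb. In the bin after the edge the ratios were 1.00, 1.27, 0.569 and 0.643, so the excess that had built up along the gene was gone within 1 bin.

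Both edges of the raised stretch were placed by rule on the 6 samples of experiment 1, each scaled to the same total, as the DpnII ends with the steepest change of density between 10 kb on either side. The near edge came at 70070511, so that the stretch ran from chr14:70070512-70091354, 20.8 kb long, starting 61534 bp into Loxl2 and ending 4286 bp short of its end. It took 27.7%, 21.7% and 27.2% of the Loxl2 reporters in WT of experiment 1 and 40.9%, 40.2% and 39.0% in ∆44/48. In WT of experiment 2 it took 29.6%, 27.6% and 32.3%. The values were 38.6%, 52.4% and 45.5% in ∆θ1, 41.1%, 37.8% and 42.0% in ∆θ2, and 39.5%, 40.2% and 40.7% in ∆θ1/θ2. No deletion sample overlapped the WT samples. The rest of the Loxl2 reporters of the deletion lines lay almost wholly nearer the viewpoint, before this stretch, so the stretch was the densest part of the gene and not the only one that was higher.

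Against its summed 10 kb flanks, the stretch had log2 density ratios of 0.58, -0.02 and 0.16 in WT of experiment 1 and 1.92, 1.61 and 1.78 in ∆44/48. They were -0.06, 0.08 and 0.24 in WT of experiment 2, 2.67, 2.10 and 0.88 in ∆θ1, 1.73, 1.57 and 1.54 in ∆θ2, and 1.84, 1.83 and 1.72 in ∆θ1/θ2. The lowest deletion value, 0.88, came from the ∆θ1 sample with the fewest reporters.

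Most of that contrast came from the far flank. Across the far edge, the log2 ratio of the density in the 10 kb inside to that in the 10 kb outside was 0.99, -0.23 and -0.06 in WT of experiment 1. It was 2.92, 3.26 and 4.12 in ∆44/48. WT of experiment 2 had -0.28, -0.15 and 0.00, whereas ∆θ1 had 3.06, 2.71 and 2.55, ∆θ2 had 3.85, 4.08 and 3.87, and ∆θ1/θ2 had 4.43, 4.08 and 3.51. The groups did not overlap, and the WT sample nearest to the deletions, replicate 1 of experiment 1, was 0.99. The edge had been placed on these samples of experiment 1, so their steps are a description only. Experiment 2 did not place it, although the gene was chosen on deletion lines against WT. From mean densities, the level inside was 10.8 times that outside in ∆44/48, 7.22 times in ∆θ1, 15.4 times in ∆θ2 and 15.8 times in ∆θ1/θ2, against 1.18 in WT of experiment 1 and 0.908 in WT of experiment 2.

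The near edge was no such step. Its log2 ratio was 0.15, 0.63 and 0.76 in WT of experiment 1 and 1.25, 0.70 and 0.84 in ∆44/48. It was 0.49, 0.50 and 0.82 in WT of experiment 2, 2.40, 1.65 and 0.00 in ∆θ1, 0.83, 0.64 and 0.69 in ∆θ2, and 0.93, 0.90 and 0.80 in ∆θ1/θ2. Deletion and WT values overlapped in every comparison, in ∆44/48 and ∆θ1/θ2 through 1 sample each. At the annotated start of Loxl2 itself, density fell rather than rose across the position in both WT groups, with mean log2 ratios of 10 kb after to 10 kb before of -0.65 ± 0.28 in experiment 1 and -0.91 ± 0.48 in experiment 2. The ratio was -0.27 ± 0.12 in ∆44/48, 0.01 ± 0.32 in ∆θ1, -0.10 ± 0.24 in ∆θ2 and -0.32 ± 0.35 in ∆θ1/θ2. No deletion line therefore had an upward step at the start of the gene larger than its spread.

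**Figure D4:**
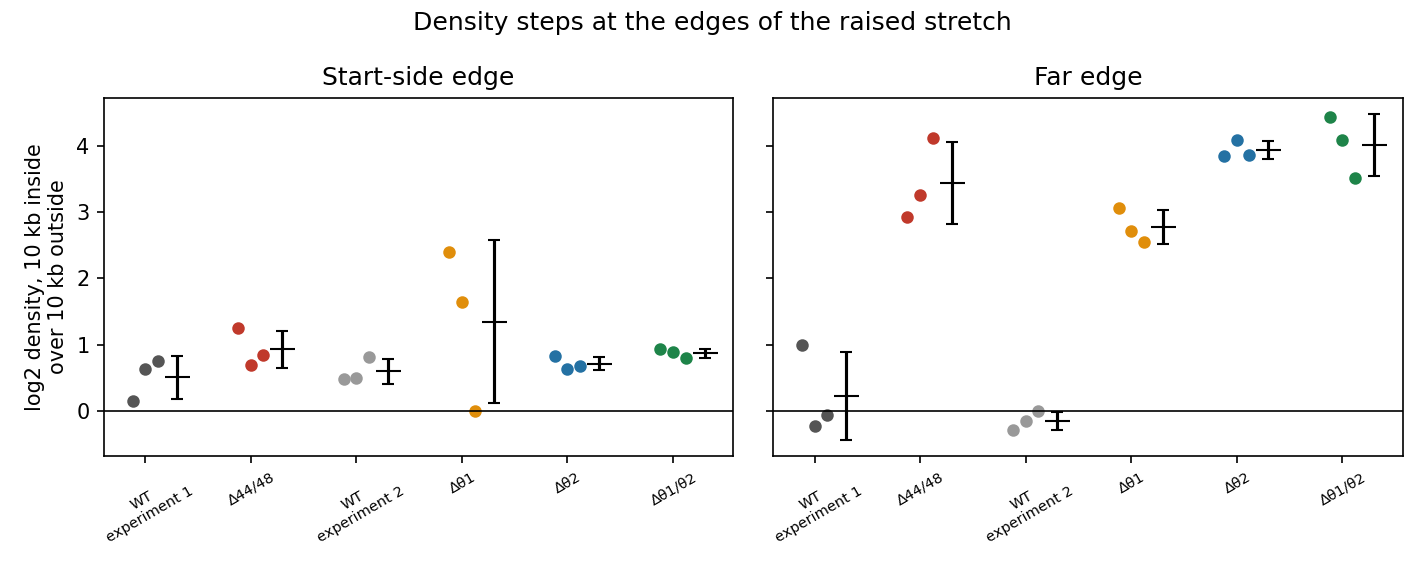
Log2 ratio of reporter density in 10 kb inside to 10 kb outside the near (start-side) and the far edge of the raised stretch, per sample, with mean ± SD beside the 3 points of each group and 0 meaning no step. At the far edge the deletion samples lie from 2.55 to 4.43 and WT from -0.28 to 0.99, whereas at the near edge the ranges overlap.

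Searching each group on its own placed the far edge at 70091354 in ∆44/48, ∆θ2 and ∆θ1/θ2 and at 70090540, the other side of the edge fragment, in ∆θ1. The near edge came at 70070511 in ∆44/48 and at 70022486 in the 3 lines of experiment 2. In WT no downward step was found there: the steepest one lay at 69980444 in experiment 1 and at 70013470 in experiment 2, nearer the viewpoint.

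At fragment level the far edge was resolved to 1 step. The fragment chr14:70089900-70090540, which holds exon 12, had 4, 1 and 4 reporters in WT of experiment 1 and 9, 50 and 98 in ∆44/48. It had 0, 3 and 0 in WT of experiment 2, 2, 5 and 1 in ∆θ1, 48, 61 and 13 in ∆θ2, and 40, 31 and 28 in ∆θ1/θ2. Per 100000 reporters these were means of 6.52 in WT and 83.5 in ∆44/48, and of 4.11, 103.6, 117.6 and 158.1 in WT, ∆θ1, ∆θ2 and ∆θ1/θ2 of experiment 2.

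The edge fragment after it was intermediate. It had 5, 2 and 2 reporters in WT of experiment 1 and 7, 15 and 18 in ∆44/48, or 6.45 and 28.3 per 100000. In experiment 2 it had 1, 4 and 2 in WT, 5, 19 and 16 in ∆θ2 and 4, 10 and 2 in ∆θ1/θ2, or 13.2, 54.8 and 27.0 per 100000. ∆θ1 had 0 in all 3 samples, which at 7586 reporters summed allows up to 39.5 per 100000. The sample values of ∆θ2 and ∆θ1/θ2 overlapped those of WT here.

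From the next fragment on, the excess was gone in ∆44/48, ∆θ2 and ∆θ1/θ2. The fragment chr14:70091355-70092110 had 1, 4 and 4 reporters in WT of experiment 1 against 0, 3 and 2 in ∆44/48. In experiment 2 it had 0, 3 and 0 in WT, 1, 0 and 0 in ∆θ1, 1, 2 and 0 in ∆θ2 and 1, 0 and 0 in ∆θ1/θ2. The 9 fragments of Loxl2 past the edge, which hold exons 13 and 14, summed to 53.0 per 100000 in WT of experiment 1 and 48.8 in ∆44/48. In experiment 2 they summed to 52.3 in WT, 127.3 in ∆θ1, 38.2 in ∆θ2 and 44.4 in ∆θ1/θ2, and no fragment of the 9 had all 3 values of a deletion line above all 3 of WT. The ∆θ1 samples spread from 7.71 to 60.9 per kb over these fragments, on either side of WT.

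Before the edge fragment, 135 of the 192 listed fragments of Loxl2 had all 3 ∆44/48 values above all 3 WT values, and 17, 141 and 138 did in ∆θ1, ∆θ2 and ∆θ1/θ2. All 3 values lay below all 3 of WT in 5 fragments in ∆θ1 and in 0 in the other lines. Over all listed fragments of chromosome 14, many of them with single reporters, the shares with all 3 deletion values above WT were 0.489%, 0.0663%, 0.459% and 0.401%. The 192 fragments together held 6.06, 5.92, 7.28 and 7.14 times the WT level.

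**Figure D5:**
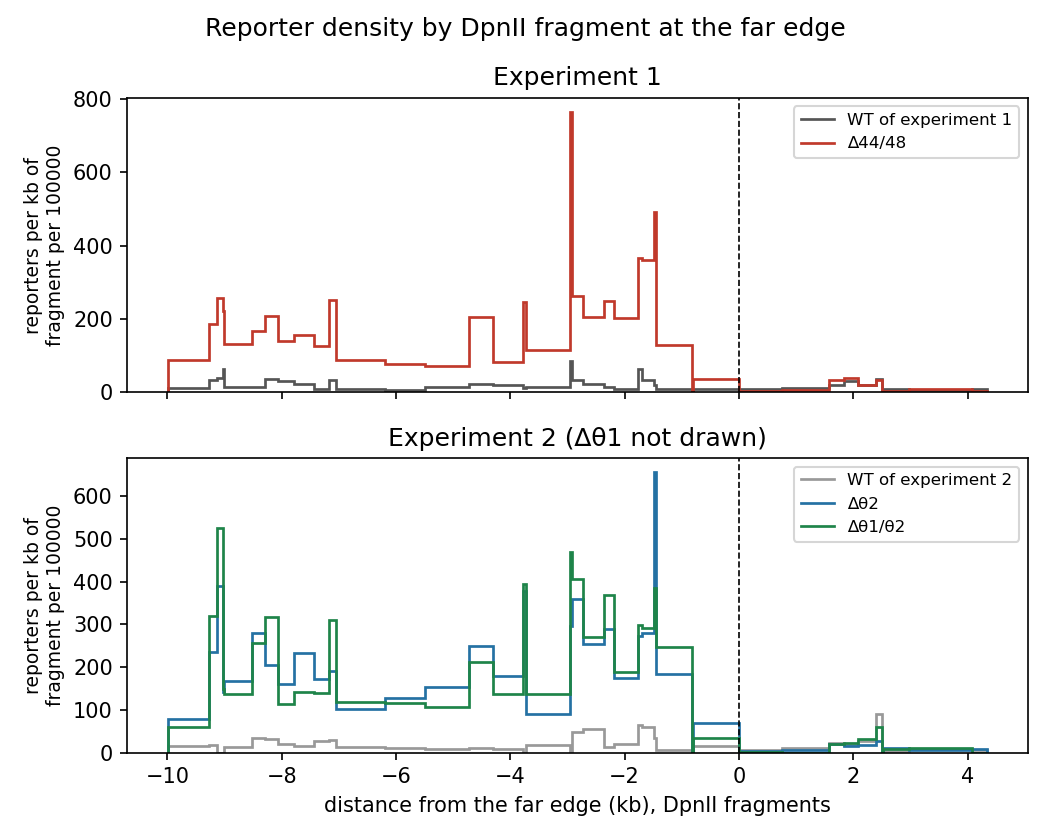
Mean reporters per kb of fragment per 100000 for each DpnII fragment in the last 10 kb before the far edge (dashed line, 0) and to the end of Loxl2, with fragments never listed drawn at 0 and the sparse ∆θ1 left out. The deletion lines are above WT in the fragments up to the edge and at its level past 0, and the fragment just before 0 is the intermediate one.

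Of the 5 fragments of Loxl2 that were strongest in WT of experiment 1, the one within the stretch was also the strongest in ∆44/48. The fragment chr14:70051376-70052006 had the most in that WT, 12.6 per 100000, and 29.3 in ∆44/48. The next 3 were chr14:70026197-70026475, chr14:70013005-70013394 and chr14:70046357-70047067, with 12.6, 12.04 and 11.5 in WT and 27.6, 22.9 and 22.3 in ∆44/48. The fifth, chr14:70087636-70088401 within the stretch, had 11.1 in WT and 88.0 in ∆44/48, the highest mean of any Loxl2 fragment in that line. In ∆θ2 the strongest fragment of the gene was the one holding exon 12, and the 5 strongest all started at or past 70077538, chosen here after their values were seen. The fragment over the annotated start of Loxl2, chr14:70008805-70009033, stood at 6.57 per 100000 in WT of experiment 1, 12.8 in ∆44/48, 1.37 in WT of experiment 2, 0 in ∆θ1, 9.08 in ∆θ2 and 16.7 in ∆θ1/θ2.

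Longer fragments collected more reporters in every group, with a Spearman correlation over the 193 listed fragments up to the edge of 0.603 in WT of experiment 1, 0.663 in ∆44/48 and 0.704 in ∆θ2. These fragments share their libraries and the correlation is a description only. The 19 exonic fragments held 66.6 reporters per kb per 100000 in ∆44/48 and the 174 others 72.6, against 8.71 and 12.4 in WT. In ∆θ2 they held 88.1 and 93.2, against 10.0 and 13.3 in WT, and in ∆θ1/θ2 82.4 and 91.7. Both parts of the gene were thus higher than in WT, and ∆θ1, with 88.2 and 72.3, was the exception to their order.

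The interval at the same distance on the other side of the viewpoint, chr14:69710283-69796945, gave a level to set against that of Loxl2 within each sample. It held 1.28% ± 0.0833 of reporters in WT of experiment 1 and 1.14% ± 0.0950 in ∆44/48. In experiment 2 it held 1.23% ± 0.0410 in WT, 1.498% ± 0.0210 in ∆θ1, 1.19% ± 0.0890 in ∆θ2 and 1.22% ± 0.0884 in ∆θ1/θ2. The log2 ratio of Loxl2 to this interval was -0.33 ± 0.21 and -0.18 ± 0.22 in the WT groups, and 2.36 ± 0.21, 2.04 ± 0.10, 2.68 ± 0.08 and 2.61 ± 0.07 in ∆44/48, ∆θ1, ∆θ2 and ∆θ1/θ2. Loxl2 lay below its mirror in 5 of 6 WT samples, in experiment 2 by less than the spread between samples, and several-fold above it in the deletion lines.

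Past the far edge, ∆44/48, ∆θ2 and ∆θ1/θ2 lay at or below WT on average, and the sparse ∆θ1 was uneven. Over the first 10 kb outside, ∆44/48 held 12.6 ± 3.06 reporters per kb per 100000 against 13.9 ± 3.23 in WT. ∆θ2 held 10.9 ± 1.65 and ∆θ1/θ2 10.6 ± 3.81 against 19.7 ± 0.722, and ∆θ1 held 21.4 ± 8.39. In ∆θ1 a single 4 kb bin past the edge, 212 kb from the start of Loxl2, was called higher in edgeR, with a log2 difference of 3.75. Bins called lower past the edge lay at 124, 856 and 1020 kb in ∆θ2. In ∆θ1/θ2 they lay at 100, 124, 1016 and 1020 kb. Over the chromosome, 4 bins were called lower in ∆44/48, 0 in ∆θ1, 9 in ∆θ2 and 11 in ∆θ1/θ2. Bins from -152 to -140 kb were among them in ∆44/48, ∆θ2 and ∆θ1/θ2 alike. Over the 40 kb outside the ratios to WT were 0.795, 0.914, 0.721 and 0.675 in ∆44/48, ∆θ1, ∆θ2 and ∆θ1/θ2. On the other side of the viewpoint, the 40 kb at chr14:69832978-69872977, chosen after its values were seen, held 142.7 ± 3.59 in WT of experiment 1 and 96.0 ± 9.503 in ∆44/48, and the ratios were 0.673, 0.888, 0.613 and 0.582. All densities are shares of the chromosome 14 total, so that a gain of 4.92 to 6.54 percentage points at Loxl2 by itself lowers all other shares a little.

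Of the neighbours, *Entpd4*, which lies between the viewpoint and Loxl2, was at 1.39, 1.41, 1.46 and 1.43 times WT in ∆44/48, ∆θ1, ∆θ2 and ∆θ1/θ2. *R3hcc1*, whose annotated end is the first past Loxl2, was at 0.785, 1.02, 0.703 and 0.668, and *Chmp7* after it at 0.766, 0.745, 0.749 and 0.633. Farther past the edge, *Tnfrsf10b* was at 0.781, 1.70, 0.934 and 1.02, with all 3 ∆θ1 samples above WT, and *Rhobtb2* at 0.726, 1.39, 0.813 and 0.580. On the other side of the viewpoint, *Nkx2-6* was at 0.725, 2.85, 0.932 and 1.13, again with all 3 ∆θ1 samples above WT. *Slc25a37* itself was at 0.887, 0.935, 0.906 and 0.968. Of 26 other genes of at least 5 kb within 1 Mb of the viewpoint, those most like Loxl2 over the 18 samples were *Gm16867* (Pearson r = 0.998), *Entpd4* (0.945) and *Gm16677* (0.417). *Gm16867* is antisense and overlaps all of Loxl2, so both share the same reporters, which carry no strand, and the correlations largely restate the contrast of WT and deletion samples.

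The α- and β-globin promoters of the same libraries, on other chromosomes, are independent of the choice of Loxl2. Reporters from these viewpoints on Loxl2 up to the far edge numbered 11, 15 and 0 in WT of experiment 1 and 0, 7 and 14 in ∆44/48, which summed to 11.2 per 10000 chromosome 14 reporters (95% Poisson interval 7.33 to 16.4) and 15.0 (9.31 to 23.0). In experiment 2 they numbered 0, 3 and 0 in WT, 2, 0 and 0 in ∆θ1, 9, 8 and 1 in ∆θ2 and 2, 1 and 2 in ∆θ1/θ2, or 10.5 (2.16 to 30.7), 36.0 (4.36 to 130), 41.8 (24.8 to 66.1) and 20.8 (6.74 to 48.4) per 10000. The intervals cover counting error only, and most samples had their reporters on 1 or a few fragments. Exact permutation tests over samples gave two-sided p-values of 1, 1, 0.2 and 0.3, or 1, 1, 0.6 and 0.6 adjusted over the 4 comparisons. With 3 against 3 samples this test cannot give a p below 0.1, so it cannot decide whether these contacts differed. The summed rate was highest in ∆θ2, and its interval overlapped that of WT.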

How the data were processed

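NG Capture-C counts of 18 Ter119+ samples were used. The authors' pipeline trimmed and merged the reads, split them at DpnII sites, mapped the pieces to mm9 by Bowtie and discarded PCR duplicates. The deposited values are raw counts of reporters per viewpoint and DpnII fragment, without normalisation. All 133826 chromosome 14 listings matched a DpnII digest of NCBIM37, and genes came from GENCODE vM1. Experiment 2 held few counts within 1 kb of the viewpoint, so that zone was left out throughout. Shares and densities are relative to the remaining chromosome 14 reporters. Windows and 4 kb bins with at least 10 counts over 6 samples went into the quasi-likelihood test of edgeR 4.0.16 (R 4.3.3), samples of the comparison only, with DESeq2 1.42.0 as an alternative, at an adjusted p of 0.01. Steps are log2 ratios of density with 0.5 count added. Python 3.11.15 was used for the rest, and the edge search and the edgeR fit were tested on simulated data. Replicates are biological per the study's methods. Per degree of freedom, the chi-square between their counts was 1.34 to 3.60. Genes named are the fixed neighbour list and the 3 genes most like Loxl2. Fragments named are the 5 strongest in WT of experiment 1 and those at the edges and at the start, and bins named are those past the threshold. Loxl2, these lists and the tests were chosen with earlier results of these data known. Comparisons between lines, gene segments and ratio profiles were added after seeing the data. The supplementary viewpoint tables gave fragment positions only.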

Additional observations from a re-analysis of the deposited data

Results flagged for a closer look

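The total of the mitoferrin viewpoint, which includes its chromosome 14 and Loxl2 reporters, was a larger share in some deletion lines. Of all reporters of the α-globin, β-globin and mitoferrin promoters, the mean share of the mitoferrin promoter was 14.7% in WT of experiment 1 and 24.2% in ∆44/48, a difference of 9.55 percentage points. In experiment 2 it was 24.9% in WT, 32.3% in ∆θ2 and 34.4% in ∆θ1/θ2, differences of 7.35 and 9.48 points. In these 3 comparisons all 3 deletion samples lay above all 3 WT samples, which is why they are listed, and the exact permutation test gave p = 0.1, the smallest it can give, or 0.133 adjusted over 4 comparisons. ∆θ1, at 26.8%, overlapped WT (exact permutation p = 0.8). The relation of this share to the Loxl2 contacts was not tested.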

How the results depend on the processing

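The gene was chosen on the contrast of deletion lines and WT, so these runs show only how far its values moved. Under every alternative run the log2 difference of the Loxl2 window kept its direction and its side of the threshold, which adds no support. It ran from 2.36 to 2.69 in ∆44/48, 1.97 to 2.64 in ∆θ1, 2.66 to 2.98 in ∆θ2 and 2.56 to 3.19 in ∆θ1/θ2. Without 1 sample at a time it ran from 2.36 to 2.66, 2.35 to 2.64, 2.66 to 2.95 and 2.63 to 2.92. Of the tested Loxl2 bins, 95.5% were called in ∆44/48, ∆θ2 and ∆θ1/θ2, whichever sample was left out. In ∆θ1 the 50% became 22.7% with TMM factors, 30.2% with 2 kb bins and 36.4% with DESeq2. It rose to 72.7% at an adjusted p of 0.05 and with all groups of experiment 2 in one fit. With 8 kb bins it was 63.6%, and with at least 30 counts 57.9%. Without 1 sample it ran from 18.2% to 45.5%, lowest without WT replicate 2, and the cause was not tested.

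The excess of the far step over WT was 3.20, 2.92, 4.07 and 4.15 on the log2 scale in ∆44/48, ∆θ1, ∆θ2 and ∆θ1/θ2. It became 2.28 in ∆θ1 and 3.82 in ∆θ2 with 5 kb flanks, 3.93 in ∆θ2 with 20 kb flanks and 2.59 in ∆θ1 with 2 counts added. Without 1 sample it ran from 2.85 to 3.57, 2.77 to 3.03, 4.00 to 4.14 and 3.94 to 4.40. The excess of the near step was 0.42, 0.75, 0.12 and 0.27, and in ∆θ2 it turned to -0.15 with 5 kb flanks. It became 0.75 in ∆44/48 with 5 kb flanks and 0.12 in ∆θ1/θ2 with the edges of experiment 2, where the near edge lay at 70022486, and without 1 sample it ran from 0.24 to 0.54, 0.22 to 1.42, 0.06 to 0.22 and 0.22 to 0.38. The excess of the stretch over its flanks (1.52, 1.80, 1.53 and 1.71) became 1.83 in ∆44/48 and 1.72 in ∆θ2 with 20 kb flanks, and 1.963 in ∆θ2 and 1.95 in ∆θ1/θ2 with the edges of experiment 2. Without 1 sample it ran from 1.39 to 1.69, 1.40 to 2.30, 1.46 to 1.61 and 1.64 to 1.79. With those edges, the excess share of the stretch became 9.64 percentage points in ∆θ1 and 8.33 in ∆θ1/θ2, from 15.6 and 10.3. Without 1 sample the excess share ran from 12.6 to 15.6, 12.2 to 19.1, 9.36 to 11.7 and 9.15 to 11.5.

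Same-numbered samples did not deviate together, with correlations from -0.09 to 0.09. This gave no sign of pairing by number but cannot exclude it, since counting error in 4 kb bins could hide a shared deviation. With the replicate block, the window differences were 2.52, 2.50, 2.78 and 2.76, and the share of called bins in ∆θ1 was 36.4%. The bins, fragments and edges of ∆θ1 rest on the fewest reporters, and the part of depth in its results was not tested. The near edge moved by 48.0 kb between experiments at 10 kb flanks, and the far edge by at most 1 listed fragment.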
